A study of Mus musculus with 29 samples.

Results

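Mouse bone marrow macrophages were examined for 33 genes of protein quality control in the endoplasmic reticulum (ER). The set holds 16 chaperones and folding catalysts, 10 factors of ER-associated degradation (ERAD), 5 transcriptional regulators or sensors of the XBP1 and ATF6 arms, and the ER membrane proteins Wfs1 and Serp1. Members were taken from a list of gene names, and a probe set was used only if it was annotated to exactly 1 gene. The members had 73 such probe sets. All 33 were among the 12394 genes measured, and 30 of them were among the 7154 genes whose signal was high enough to test. A gene was tested by its probe set with the highest mean. By this rule Ern1, Derl3 and Fkbp11 lay below the filter and are given as levels, although a dimmer Fkbp11 probe set passed it and is described with the prolyl isomerases.

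The study asked how IL-4, a cytokine that drives alternative macrophage activation, acts together with IL-6 or IL-10. Bone marrow of C57BL/6 mice, which were wild-type and 8 weeks old, was grown for 7 days in Teflon bags with 10 ng/ml CSF-1, the macrophage growth factor. CSF-1 stayed in the medium of every group, controls included, during the 24 h of stimulation, and each cytokine was added at 10 ng/ml. RNA (75 ng per sample) was labelled and read on 29 single-colour Affymetrix arrays, whose probes lie towards the 3' end of transcripts. There were 8 unstimulated arrays, 5 with IL-4, 5 with IL-6, 3 with IL-10, 5 with IL-4+IL-6 and 3 with IL-4+IL-10. Nothing in the labels ties the arrays of a group to different animals or cultures. The p-values below therefore rest on array-to-array spread alone, which may be technical, and the precision is limited by how many arrays there are. In such bulk RNA, fewer cells of a type and less RNA per cell cannot be told apart.

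Chaperones such as BiP, the product of Hspa5, hold and fold proteins that enter the ER, and ERAD returns misfolded ones to the cytosol for the proteasome. When folding falls behind, the sensor IRE1 (Ern1) splices Xbp1 mRNA into the form that encodes an active transcription factor, and ATF6 is carried to the Golgi and cut there, which frees its own transcription factor domain. Both factors raise chaperone and ERAD genes, and the pathway is best known in cells that secrete heavily, such as plasma cells. The arrays measured total mRNA of each gene. They do not separate spliced from unspliced Xbp1, and they say nothing of ATF6 protein or its cleavage.

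ATF6 acts with NF-Y at the ER stress response element (ERSE), written CCAAT, any 9 bases, CCACG, and XBP1 and ATF6 also use the shorter ERSE-II, ATTGG, any 1 base, CCACG. Because the regulators in the set are known for these elements, windows from 250 bases before to 50 bases after the transcription start (RefSeq, GRCm38.p6) were searched on both strands. A window was found for 28 of the 33 members; Atf6, Hyou1, Manf, Sil1 and Derl1 had none. The matches are shown so that the fixed letters, in capitals, can be compared between genes, 5' to 3' on the strand that reads CCAAT (or ATTGG) first:
Hspa5: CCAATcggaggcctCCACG
Syvn1: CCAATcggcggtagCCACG
Dnajc3: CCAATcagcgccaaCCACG
Canx: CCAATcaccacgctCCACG
Hsp90b1, far copy: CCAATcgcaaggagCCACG
Hsp90b1, near copy: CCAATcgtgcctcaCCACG
Creld2: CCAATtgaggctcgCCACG
Calr: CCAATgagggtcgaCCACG
Derl3: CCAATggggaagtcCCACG
Herpud1, ERSE-II: ATTGGgCCACG
Dnajb11, ERSE-II: ATTGGcCCACG

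An ERSE stood in the windows of 8 of 28 members (28.57%), against 39 of all 32851 windows (0.119%) and 37 of 27025 genes (0.137%). ERSE-II stood in 2 of 28 members (7.14%), against 12 of all windows (0.037%) and 12 of 27025 genes (0.044%). The members were listed for a pathway that has long been described through these elements, so these shares describe the list. Relative to the start, counted as +1, the Hspa5 match ran from -65 to -47, that of Syvn1 from -44 to -26, that of Dnajc3 from -105 to -87 and that of Canx from -145 to -127. The far Hsp90b1 copy lay at -212 to -194. On the opposite strand lay the near Hsp90b1 copy (-107 to -89) and the matches of Creld2 (-126 to -108), Calr (-162 to -144) and Derl3 (-156 to -138). The ERSE-II matches ran from -52 to -42 in Herpud1 and from 8 to 18 in Dnajb11. Every ERSE also counts as a CCAAT and a CCACG match, letters that alone were common: 85.71% of the 28 members had CCAAT and 85.71% had CCACG, against 41.058% and 35.482% of all genes. The UPRE core TGACGTG, read on both strands, was in Hspa5, Vcp and Fkbp11 (10.71% of 28 members) and in 2.224% of all genes. A match is a run of letters, not a shown binding site.

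**Figure D1:**
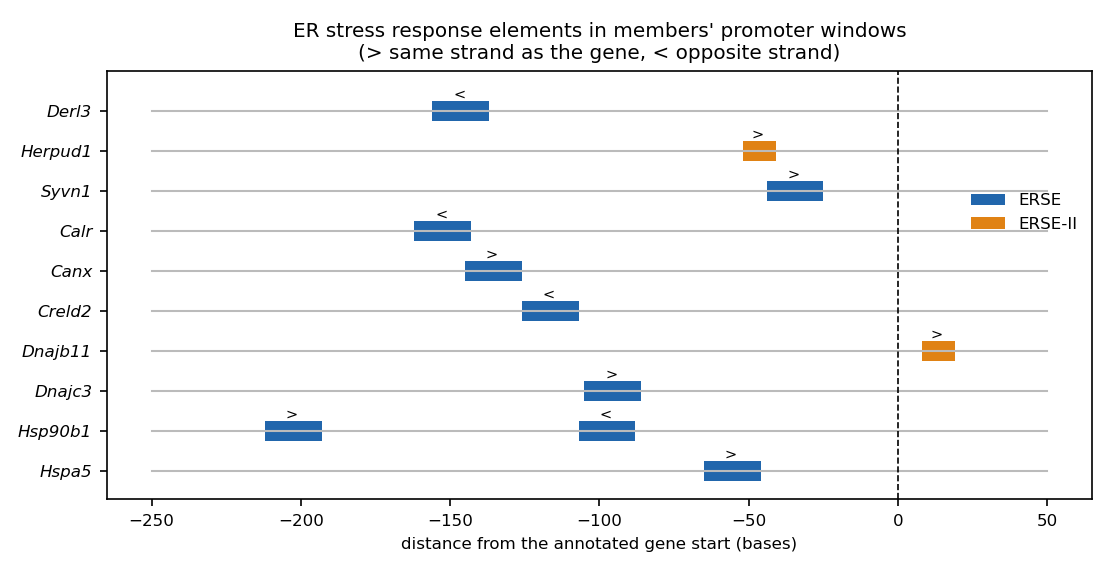
Position of each ERSE and ERSE-II match in the promoter windows of members with at least 1 match; the x axis is the distance from the transcription start in bases and each line is 1 gene. Of the 28 members with a window, 8 held an ERSE and 2 an ERSE-II.

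The full windows of 5 members follow, chosen because they set side by side the BiP gene (Hspa5), a chaperone with a pair of ERSE matches (Hsp90b1), a strongly responding gene with an ERSE on the opposite strand (Creld2), an ERAD ligase with an ERSE near the start (Syvn1), and the partner of that ligase, which has no ERSE in its window (Sel1l). Capitals mark the fixed letters of an ERSE, ERSE-II or UPRE core; a match on the opposite strand appears as CGTGG before ATTGG.
Hspa5 (chr2:34771840-34772139, plus strand): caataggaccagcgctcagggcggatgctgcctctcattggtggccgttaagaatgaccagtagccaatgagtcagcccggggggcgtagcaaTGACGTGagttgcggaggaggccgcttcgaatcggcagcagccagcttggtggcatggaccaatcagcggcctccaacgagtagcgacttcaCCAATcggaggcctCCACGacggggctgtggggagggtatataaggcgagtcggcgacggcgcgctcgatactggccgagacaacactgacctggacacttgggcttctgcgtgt
Hsp90b1 (chr10:86705395-86705694, minus strand): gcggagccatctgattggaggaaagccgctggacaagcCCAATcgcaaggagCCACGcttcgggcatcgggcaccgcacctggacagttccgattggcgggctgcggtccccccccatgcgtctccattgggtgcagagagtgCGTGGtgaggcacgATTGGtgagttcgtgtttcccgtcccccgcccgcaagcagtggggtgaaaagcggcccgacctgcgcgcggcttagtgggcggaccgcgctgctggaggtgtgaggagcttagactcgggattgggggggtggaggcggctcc
Creld2 (chr15:88819396-88819695, plus strand): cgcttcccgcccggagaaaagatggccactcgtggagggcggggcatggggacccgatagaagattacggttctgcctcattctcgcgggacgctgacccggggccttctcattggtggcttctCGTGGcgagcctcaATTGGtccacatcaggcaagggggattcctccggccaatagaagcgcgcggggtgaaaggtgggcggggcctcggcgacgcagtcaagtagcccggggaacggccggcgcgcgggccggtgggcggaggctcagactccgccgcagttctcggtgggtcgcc
Syvn1 (chr19:6046326-6046625, plus strand): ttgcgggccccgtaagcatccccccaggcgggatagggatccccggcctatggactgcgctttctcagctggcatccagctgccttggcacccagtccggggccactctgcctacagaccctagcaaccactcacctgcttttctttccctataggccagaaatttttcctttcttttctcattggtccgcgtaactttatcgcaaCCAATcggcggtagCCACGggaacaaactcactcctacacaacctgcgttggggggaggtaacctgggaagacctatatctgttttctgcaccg
Sel1l (chr12:91849108-91849407, minus strand): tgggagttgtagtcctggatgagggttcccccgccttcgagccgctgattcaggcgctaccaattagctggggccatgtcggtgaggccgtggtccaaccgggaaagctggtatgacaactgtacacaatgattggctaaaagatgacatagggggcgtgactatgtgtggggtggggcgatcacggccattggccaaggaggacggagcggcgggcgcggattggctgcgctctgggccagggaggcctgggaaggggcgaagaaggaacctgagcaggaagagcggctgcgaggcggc

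The sample order and numbering place unstimulated replicates 6 to 8 beside the IL-10 and IL-4+IL-10 arrays, and unstimulated replicates 1 to 5 beside the other groups. The labels do not say that these are separate batches, so the sets of arrays are presumed here. All comparisons with unstimulated cells use the 8 controls unless stated, and results that differ with the controls of the same set are given beside the values, with a full list in the paragraph on these sets.

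In each cytokine group most of the 30 tested members rose, though not the same members each time, and their median shift was widest under the pairs. The members were chosen with earlier results of these data known, and other ER chaperones and ERAD factors, given further below, rose less often. Each gene is represented by its brightest probe set, a call means an adjusted p under 0.05 in limma over all 7154 genes, and differences are on the log2 scale. Under IL-4 alone 20 of 30 members were higher than in unstimulated cells and 4 lower, while 27.6% of all genes tested were called higher and 31.9% lower. IL-6 alone gave 24 higher and 0 lower in limma, also 0 lower at an unadjusted p under 0.05 (all genes, 16.1% and 23.1%), and IL-10 alone gave 22 higher and 1 lower (18.3% and 19.5%). With IL-4+IL-6, 28 were higher and 1 lower (35% and 38.8%), and with IL-4+IL-10, 25 were higher and 3 lower (38.1% and 34%).

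The median log2 difference of the 30 members from unstimulated cells was 0.19 with IL-4, 0.24 with IL-6, 0.28 with IL-10, 0.60 with IL-4+IL-6 and 0.51 with IL-4+IL-10, while the median over all genes tested lay between -0.03 and 0.02. In single arrays, the members' median deviation from the unstimulated mean ran from -0.07 to 0.05 without cytokine and from 0.16 to 0.28 with 1 cytokine. It ran from 0.58 to 0.62 with IL-4+IL-6 and from 0.50 to 0.52 with IL-4+IL-10, so no array of a pair overlapped any array of a single cytokine in this median. A rise of at least 1.5-fold was called for 3 members with IL-4 (4.11% of all genes), 2 with IL-6 (3.06%), 4 with IL-10 (3.44%), 17 with IL-4+IL-6 (8.72%) and 11 with IL-4+IL-10 (9.16%).

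**Figure D2:**
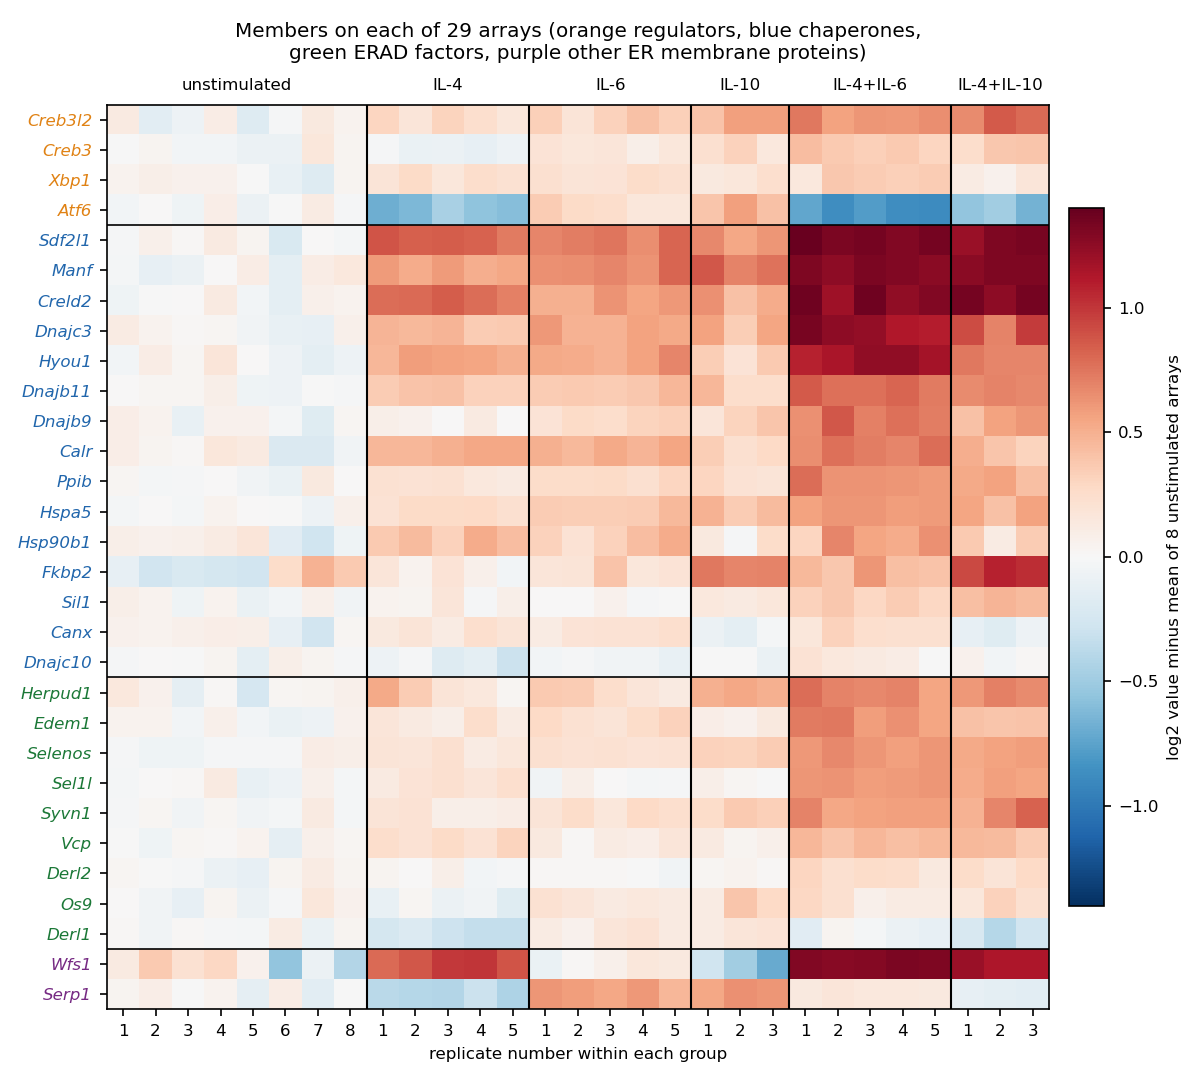
Log2 signal of each of the 30 tested members in each of the 29 arrays, as the difference from that gene's unstimulated mean (colour scale), with genes ordered by role and arrays by group. The columns of the pairs hold the widest shifts, with median differences of 0.60 for IL-4+IL-6 and 0.51 for IL-4+IL-10.

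Most chaperones of the set rose under each of the 5 stimulations. Of 15 tested chaperones, 11 rose and 1 fell with IL-4 (median 0.36), 12 rose with IL-6 (0.37) and 12 with IL-10 (0.30). All 15 rose with IL-4+IL-6 (0.72) and 13 with IL-4+IL-10 (0.53). Of 9 tested ERAD genes, 6 rose and 1 fell with IL-4 (0.15), 7 rose with IL-6 (0.16), 5 with IL-10 (0.16), 8 with IL-4+IL-6 (0.59), and 8 rose and 1 fell with IL-4+IL-10 (0.42). The 4 tested regulators split: 2 rose and 1 fell with IL-4, all 4 rose with IL-6 and with IL-10, and with either pair 3 rose and 1, Atf6, fell.

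**Figure D3:**
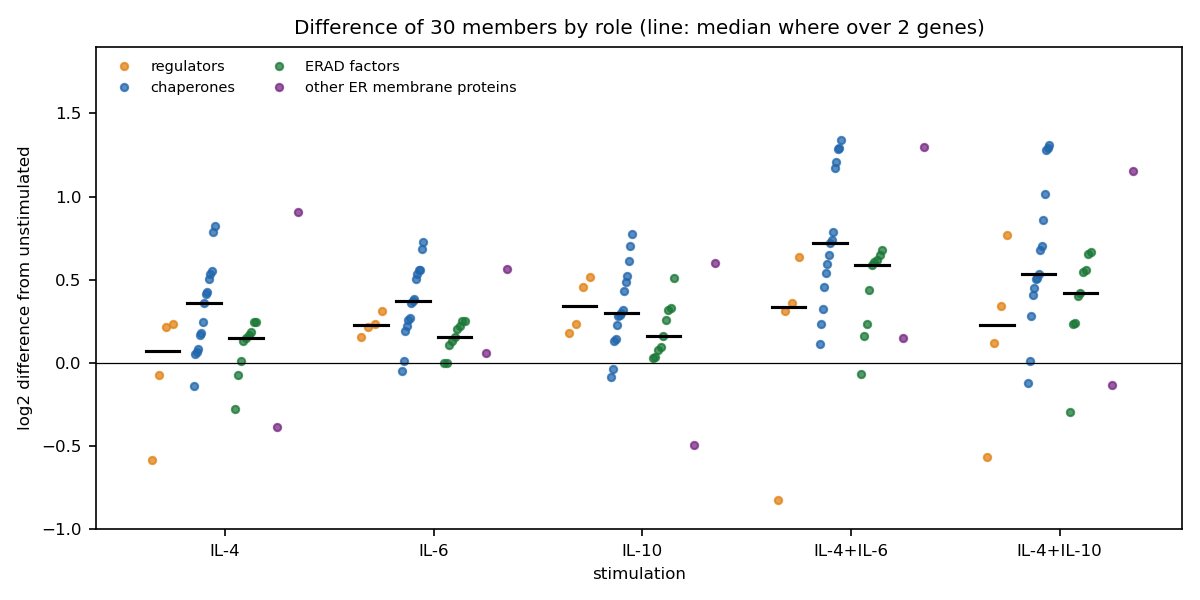
Log2 difference from unstimulated cells of each tested member, by role and stimulation (points), with the median of the role (line). The ERAD genes sit near 0.15 to 0.16 with any 1 cytokine and at 0.59 with IL-4+IL-6, and the chaperones at 0.30 to 0.37 and 0.72.

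Among the regulators, total Xbp1 mRNA was well above the filter in every group, and its rises were small. Unstimulated arrays held log2 Xbp1 signals between 12.18 and 12.44, with a median of 12.40. With a single cytokine, the signals were 12.55, 12.63, 12.52, 12.61 and 12.58 in the IL-4 arrays, 12.58, 12.55, 12.55, 12.62 and 12.59 in the IL-6 arrays, and 12.50, 12.52 and 12.60 in the IL-10 arrays. The pairs gave 12.51, 12.74, 12.72, 12.69 and 12.71 with IL-4+IL-6 and 12.48, 12.43 and 12.54 with IL-4+IL-10. Every IL-4, IL-6, IL-10 and IL-4+IL-6 array lay above every unstimulated array, while the lowest IL-4+IL-10 array (12.43) lay just under the highest unstimulated array (12.44). The differences were 0.21 (SE 0.04, adjusted p = 8.11e-05) with IL-4, 0.21 (SE 0.04, adjusted p = 0.000166) with IL-6, 0.18 (SE 0.05, adjusted p = 0.0061) with IL-10 and 0.31 (SE 0.04, adjusted p = 1.91e-07), or 1.24-fold, with IL-4+IL-6. IL-4+IL-10 gave 0.12 (SE 0.05, adjusted p = 0.038), a call that did not hold when unstimulated replicate 6 or 7, or IL-4+IL-10 replicate 1 or 3, was left out. It was 0.20 against replicates 6 to 8 alone and 0.19 over the average of the probe sets, both called. The IL-10 call was lost without IL-10 replicate 3 (0.15, adjusted p = 0.0542). IL-4+IL-6 was not called different from IL-4 (0.10 ± 0.05 SE) or from IL-6 (0.10 ± 0.05), and both differences were called with the replicate number of arrays 1 to 5 as a block. The other probe sets for Xbp1 moved the same way with IL-4+IL-6, by up to 0.59. Of 3 tested Xbp1 probe sets, 2 were called higher with IL-4+IL-6 than with IL-4 (up to 0.25) and 1 higher than with IL-6. In the interaction of IL-4 and IL-6, 2 of the 3 were called below 0 (lowest -0.23).

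Atf6 was the regulator whose mRNA moved in opposite directions. For Atf6 the lowest, median and highest unstimulated signals were 9.70, 9.77 and 9.90 (log2). IL-4 arrays read 9.10, 9.15, 9.33, 9.22 and 9.19, IL-6 arrays 10.14, 10.05, 10.03, 9.94 and 9.94, and IL-10 arrays 10.17, 10.36 and 10.19. Under the pairs, Atf6 read 9.06, 8.91, 9.0, 8.91 and 8.90 with IL-6 added to IL-4 and 9.23, 9.30 and 9.12 with IL-10 added. Arrays with IL-4, alone or in a pair, lay below every unstimulated array, and arrays with only IL-6 or only IL-10 lay above. Atf6 fell with IL-4, with a log2 difference of -0.59 (SE 0.05, adjusted p = 1.47e-11), rose with IL-6 by 0.24 (SE 0.05, adjusted p = 0.000163) and with IL-10 by 0.46 (SE 0.05, adjusted p = 1.31e-07). It was lowest with IL-4+IL-6, at -0.82 (SE 0.05, adjusted p = 2.87e-15) or 1.77-fold below unstimulated cells, and lay at -0.57 (SE 0.05, adjusted p = 5.64e-10) with IL-4+IL-10. IL-6 went with higher Atf6 without IL-4 and lower Atf6 with it, and the interaction on the log2 scale was -0.47 (SE 0.07, adjusted p = 3.05e-06); that with IL-10 was -0.44 (SE 0.08, adjusted p = 0.000194).

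Creb3 and Creb3l2, relatives of ATF6 that are also held in a membrane and freed by cleavage, rose with both pairs. Creb3l2 rose by 0.24 with IL-4, 0.31 with IL-6, 0.52 with IL-10, 0.64 with IL-4+IL-6 and 0.77 with IL-4+IL-10, from 7.78 ± 0.13 (SD, n = 8) in unstimulated cells. Creb3 was not called with IL-4 (-0.08, SE 0.04, adjusted p = 0.0954). It rose with the pairs by 0.36 ± 0.04 (SE) and 0.34 ± 0.05, after 0.15 with IL-6 and 0.23 with IL-10; the last was 0.19 and not called against unstimulated replicates 6 to 8 alone (adjusted p = 0.119). Ern1, which encodes IRE1, was too dim to test, with means from 6.41 ± 0.16 (SD, n = 8) in unstimulated cells to 6.79 ± 0.16 (n = 5) with IL-4+IL-6.

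The BiP gene Hspa5 rose in every cytokine group. Log2 Hspa5 ran from 13.17 through a median of 13.24 to 13.31 without cytokine. It was 13.44, 13.51, 13.51, 13.51 and 13.46 after IL-4, 13.59, 13.58, 13.59, 13.60 and 13.69 after IL-6, and 13.72, 13.60 and 13.69 after IL-10. After the combinations it was 13.81, 13.86, 13.85, 13.83 and 13.83 (IL-4+IL-6) and 13.79, 13.65 and 13.81 (IL-4+IL-10). No cytokine group overlapped the unstimulated arrays, and the IL-4+IL-6 arrays lay above all arrays of the single cytokines. Hspa5 rose by 0.25 (SE 0.03, adjusted p = 9.63e-08) with IL-4, 0.37 (SE 0.03, adjusted p = 1.23e-10) with IL-6, 0.43 (SE 0.04, adjusted p = 2.57e-10) with IL-10, 0.60 (SE 0.03, adjusted p = 5.13e-16) or 1.51-fold with IL-4+IL-6, and 0.51 (SE 0.04, adjusted p = 1.3e-12) with IL-4+IL-10. IL-4+IL-10 was not called different from IL-10 alone (0.08, SE 0.04, adjusted p = 0.11). Without IL-4+IL-10 replicate 2 it was called higher (0.13, adjusted p = 0.0162 in limma). The other Hspa5 probe set read 0.19 there, and 1 of the 2 was called higher. The IL-4 by IL-10 interaction was -0.17 (SE 0.05, adjusted p = 0.0254), a call that was lost without IL-10 replicate 1 or 3 or IL-4+IL-10 replicate 2. The other probe set read -0.10 in this interaction, and 1 of the 2 was called.

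Sdf2l1, which works with the co-chaperone ERdj3 (Dnajb11), had the largest rise with IL-4+IL-6 among the 30 tested members. Unstimulated arrays held log2 Sdf2l1 signals between 10.53 and 10.87, with a median of 10.75. With a single cytokine, the signals were 11.63, 11.58, 11.60, 11.56 and 11.48 in the IL-4 arrays, 11.43, 11.46, 11.49, 11.40 and 11.56 in the IL-6 arrays, and 11.41, 11.29 and 11.36 in the IL-10 arrays. The pairs gave 12.13, 12.06, 12.08, 12.04 and 12.09 with IL-4+IL-6 and 11.95, 12.05 and 12.07 with IL-4+IL-10. The unstimulated, single-cytokine and pair arrays formed separate ranges. The rise was 0.83 (SE 0.04, adjusted p = 9.7e-16) or 1.77-fold with IL-4, 0.73 (SE 0.04, adjusted p = 5.67e-14) with IL-6, 0.61 (SE 0.05, adjusted p = 9.63e-11) with IL-10, 1.34 (SE 0.04, adjusted p = 4.8e-21) or 2.53-fold with IL-4+IL-6 and 1.28 (SE 0.05, adjusted p = 1.7e-18) with IL-4+IL-10. The IL-4+IL-6 level was slightly under the product of the single folds (interaction -0.21, SE 0.06, adjusted p = 0.00729).

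Creld2 and Manf, both ER-resident proteins that can be secreted, also rose in every cytokine group. For Creld2 the lowest, median and highest unstimulated signals were 9.51, 9.64 and 9.76 (log2). IL-4 arrays read 10.42, 10.44, 10.49, 10.42 and 10.35, IL-6 arrays 10.13, 10.13, 10.27, 10.20 and 10.25, and IL-10 arrays 10.29, 10.06 and 10.16. Under the pairs, Creld2 read 11.00, 10.83, 11.00, 10.88 and 10.94 with IL-6 added to IL-4 and 10.98, 10.90 and 10.98 with IL-10 added. All pair arrays exceeded all arrays of single cytokines. Creld2 rose 2.44-fold with IL-4+IL-6 (1.29, SE 0.04, adjusted p = 2.12e-20) and 2.48-fold with IL-4+IL-10 (1.31, SE 0.05, adjusted p = 1.89e-18). Neither interaction was called (-0.05 ± 0.06 and 0.00 ± 0.08 SE). Manf rose by 0.55, 0.68 and 0.77 with IL-4, IL-6 and IL-10, and by 1.29 and 1.29 with the pairs. Its interactions were 0.05 ± 0.07 and -0.03 ± 0.08 and were not called.

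Hyou1, a large Hsp70 relative that helps BiP exchange nucleotide, and Dnajc3, a BiP co-chaperone, were higher with IL-4+IL-6 than with IL-4+IL-10. Hyou1 rose by 1.17 (SE 0.05, adjusted p = 5.61e-19) with IL-4+IL-6 and by 0.70 (SE 0.05, adjusted p = 5.68e-12) with IL-4+IL-10, and IL-4+IL-10 minus IL-4+IL-6 was -0.47 (SE 0.06, adjusted p = 5.34e-07). Dnajc3 rose by 1.21 (SE 0.05, adjusted p = 3.62e-18) and 0.86 (SE 0.06, adjusted p = 7.2e-13), and IL-4+IL-10 minus IL-4+IL-6 was -0.35 (SE 0.07, adjusted p = 0.000152). With single cytokines Hyou1 rose by 0.53, 0.56 and 0.30 with IL-4, IL-6 and IL-10, and Dnajc3 by 0.43, 0.53 and 0.49. Averaged over its probe sets, Hyou1 read 0.13 with IL-10 and was not called (adjusted p = 0.0764). For Dnajc3 both pairs lay above all single-cytokine arrays, while for Hyou1 the lowest IL-4+IL-10 array (10.16) lay just under the highest IL-6 array (10.17).

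**Figure D4:**
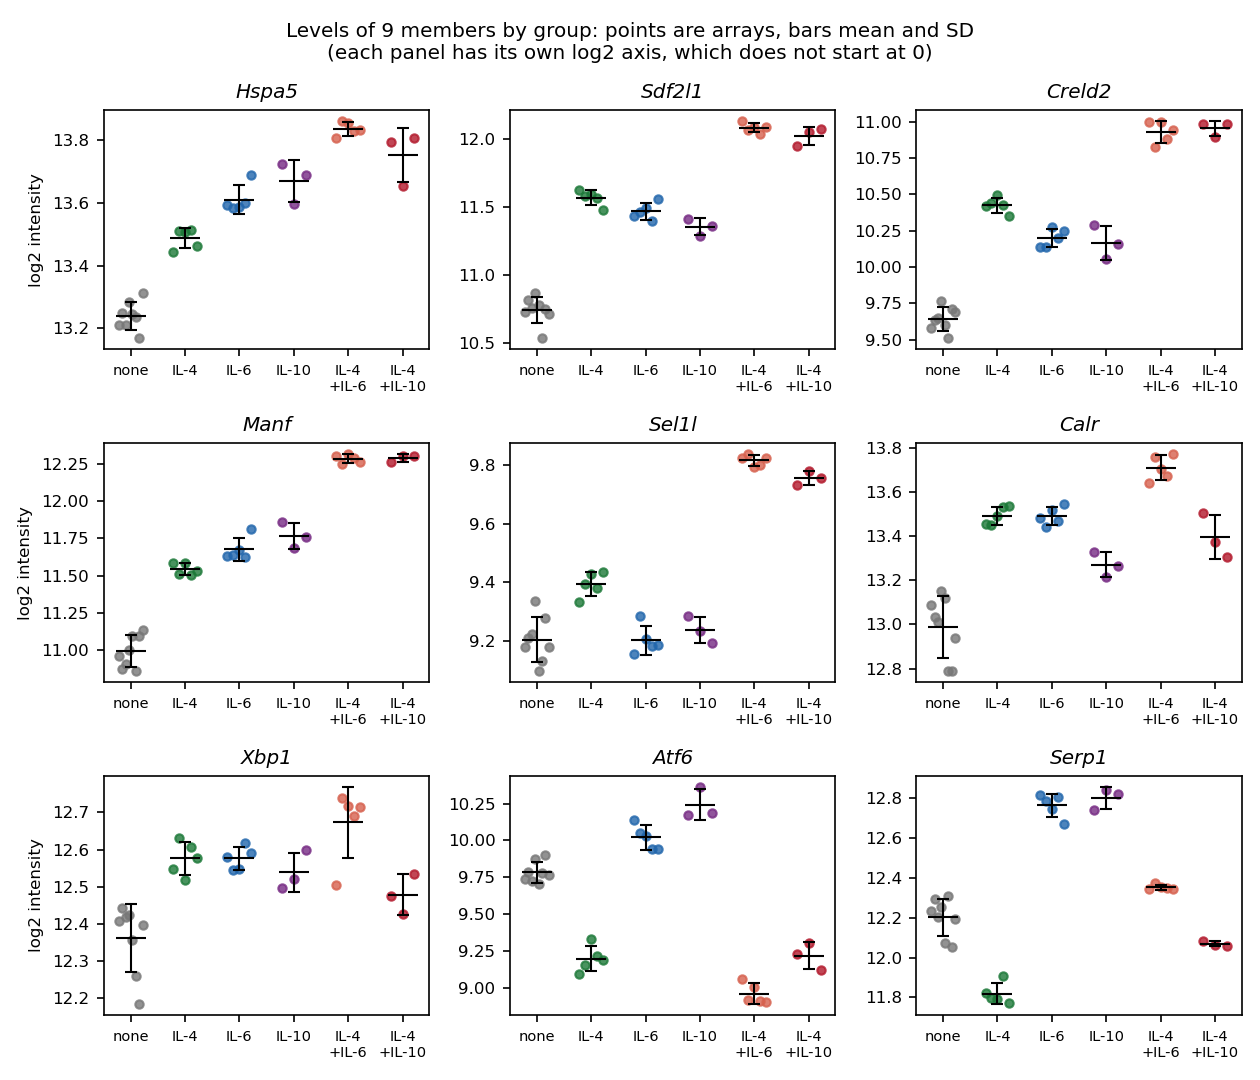
Log2 signal of selected members in every array by stimulation group (points), with the group mean and SD (bar and whiskers); groups hold 8, 5, 5, 3, 5 and 3 arrays. Sdf2l1 steps from a highest unstimulated value of 10.87 to a lowest IL-4+IL-6 value of 12.04, and Atf6 lies below its unstimulated range wherever IL-4 was present.

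The lectin chaperones calreticulin (Calr) and calnexin (Canx), which hold glycoproteins during folding, rose with IL-4 and with IL-6, and of these only Calr was called with IL-10 as well. Log2 Calr ran from 12.79 through a median of 13.02 to 13.15 without cytokine. It was 13.45, 13.45, 13.49, 13.53 and 13.54 after IL-4, 13.48, 13.44, 13.52, 13.47 and 13.54 after IL-6, and 13.33, 13.22 and 13.26 after IL-10. After the combinations it was 13.64, 13.76, 13.70, 13.67 and 13.77 (IL-4+IL-6) and 13.50, 13.37 and 13.31 (IL-4+IL-10). All cytokine groups lay above the unstimulated range, and the IL-4+IL-10 arrays overlapped those of IL-4. Calr rose by 0.50 (SE 0.05, adjusted p = 2.4e-09) with IL-4, 0.50 (SE 0.05, adjusted p = 6.24e-09) with IL-6, 0.28 (SE 0.06, adjusted p = 0.000567) with IL-10, 0.72 (SE 0.05, adjusted p = 5.8e-13) with IL-4+IL-6 and 0.41 (SE 0.06, adjusted p = 1.3e-06) with IL-4+IL-10. Both interactions were below 0, at -0.28 (SE 0.08, adjusted p = 0.00378) with IL-6 and -0.38 (SE 0.09, adjusted p = 0.00253) with IL-10, so the pairs gave less than the product of the single folds. Against replicates 6 to 8 alone, the presumed set of the IL-10 arrays, Calr rose by 0.43 with IL-10. Canx rose with IL-4 (0.17 ± 0.05 SE), IL-6 (0.19 ± 0.05) and IL-4+IL-6 (0.23 ± 0.05), with 0.09 and 0.12 for the single cytokines against replicates 1 to 5 alone, and read -0.08 ± 0.06 with IL-10 and -0.12 ± 0.06 with IL-4+IL-10, neither called. The other Canx probe sets read -0.27 and 0.30 with IL-10, called in opposite directions, and -0.22 (not called) and 0.42 (called) with IL-4+IL-10. GRP94 (Hsp90b1) rose by 0.42 with IL-4, 0.36 with IL-6, 0.54 with IL-4+IL-6 and 0.28 with IL-4+IL-10, and was not called with IL-10 (0.13, SE 0.09, adjusted p = 0.254). Against replicates 6 to 8 alone, Hsp90b1 was called higher with IL-10 (0.30, adjusted p = 0.0489), and its other probe set was called higher against all 8 controls (0.36). Its rise with IL-4+IL-10 was 0.45 against replicates 6 to 8 alone and 0.44 over the average of its probe sets.

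The BiP co-chaperones of the J-domain family differed in their response to single cytokines. Dnajb9 (ERdj4) was not called with IL-4 (0.06, SE 0.05, adjusted p = 0.321), rose by 0.27 with IL-6 and 0.29 with IL-10, and rose by 0.74 (SE 0.05, adjusted p = 5.19e-14) with IL-4+IL-6. Its interaction of IL-4 and IL-6 was 0.42 (SE 0.07, adjusted p = 2.61e-05). Dnajb11 (ERdj3) rose with every cytokine, by 0.36, 0.38 and 0.32 with IL-4, IL-6 and IL-10 and by 0.79 and 0.68 with the pairs, and its interactions were not called (0.05 ± 0.05 and 0.00 ± 0.06 SE). Dnajc10 (ERdj5), a reductase, fell with IL-4, with a difference of -0.14 (SE 0.04, adjusted p = 0.00521), and rose with IL-4+IL-6 by 0.11 (SE 0.04, adjusted p = 0.0165); this rise was not called without IL-4+IL-6 replicate 1. Averaged over its probe sets, Dnajc10 read -0.07 with IL-4, not called, and 0.34 with IL-4+IL-6.

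Sil1, a nucleotide exchange factor of BiP, was not called with IL-4 (0.07 ± 0.03 SE) or IL-6 (0.01 ± 0.03) but rose with IL-4+IL-6 by 0.33 (SE 0.03, adjusted p = 8.07e-10) and with IL-4+IL-10 by 0.45 (SE 0.04, adjusted p = 7.11e-11). With IL-10 alone Sil1 was called higher against the 8 controls, but not against unstimulated replicates 6 to 8 alone. Its interactions were 0.25 (SE 0.05, adjusted p = 0.000169) and 0.24 (SE 0.06, adjusted p = 0.00292). The prolyl isomerase Ppib rose by 0.18, 0.26 and 0.23 with the single cytokines and by 0.65 and 0.51 with the pairs. Against unstimulated replicates 6 to 8 alone, the Ppib rise with IL-10 was 0.21 and not called (adjusted p = 0.0732).

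Fkbp11, another prolyl isomerase, gave different readings with different probes. Its brightest probe set stayed below the filter, with group means from 6.61 ± 0.15 to 6.79 ± 0.12 (SD). A dimmer one passed it, and only through the arrays of the pairs. The lowest, median and highest log2 signals of that Fkbp11 probe set were 5.12, 5.61 and 5.81 without cytokine, 6.03, 6.08 and 6.18 with IL-4, 5.94, 6.05 and 6.16 with IL-6, and 5.86, 5.94 and 6.15 with IL-10. They were 7.46, 7.58 and 7.99 with IL-4+IL-6 and 7.18, 7.45 and 7.50 with IL-4+IL-10. Every single-cytokine array lay above every unstimulated array, and every pair array above all of these. In limma over all probe sets that passed, the Fkbp11 differences from unstimulated cells were 0.59 (SE 0.10, adjusted p = 1.1e-05) with IL-4, 0.55 (SE 0.10, adjusted p = 5.62e-05) with IL-6, 0.47 (SE 0.12, adjusted p = 0.00231) with IL-10, 2.12 (SE 0.10, adjusted p = 6.4e-17) with IL-4+IL-6 and 1.86 (SE 0.12, adjusted p = 1.07e-13) with IL-4+IL-10. A probe set that passes only where it is high had to differ between groups, so these values are a description, and they enter none of the counts over 30 members.

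The prolyl isomerase Fkbp2 differed among the unstimulated arrays themselves. Unstimulated replicates 1 to 8 read, in that order, 10.31, 10.16, 10.21, 10.19, 10.16, 10.69, 10.92 and 10.80. Replicates 6 to 8 lay above 1 to 5 by 0.59 (SE 0.06, adjusted p = 0.00023). IL-4+IL-6 arrays (10.88, 10.81, 11.05, 10.85 and 10.82) overlapped the unstimulated range. IL-10 arrays read 11.17, 11.11 and 11.12 and IL-4+IL-10 arrays 11.35, 11.51 and 11.47, above all others. Against all 8 controls Fkbp2 rose by 0.70 (SE 0.12, adjusted p = 3.43e-05) with IL-10, 1.01 (SE 0.12, adjusted p = 2.79e-08) with IL-4+IL-10 and 0.45 (SE 0.10, adjusted p = 0.000254) with IL-4+IL-6, and was not called with IL-4 (0.09, SE 0.10, adjusted p = 0.486) or IL-6 (0.22, SE 0.10, adjusted p = 0.0882). With the replicate number of arrays 1 to 5 as a block, which leaves out unstimulated replicates 6 to 8, it was called higher with IL-4 by 0.31 (adjusted p = 1.87e-06) and with IL-6 by 0.44 (adjusted p = 5.02e-08). Against replicates 6 to 8 alone, the rises were 0.33 with IL-10 and 0.64 with IL-4+IL-10, both called.

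The ERAD genes of the set rose most with the pairs. Sel1l, the adaptor of the HRD1 ubiquitin ligase, was not called with IL-6 or IL-10 alone by its brightest probe set and was highest in the pairs. Unstimulated arrays held log2 Sel1l signals between 9.10 and 9.34, with a median of 9.20. With a single cytokine, the signals were 9.33, 9.39, 9.43, 9.38 and 9.44 in the IL-4 arrays, 9.16, 9.29, 9.21, 9.18 and 9.19 in the IL-6 arrays, and 9.29, 9.23 and 9.20 in the IL-10 arrays. The pairs gave 9.82, 9.84, 9.79, 9.80 and 9.82 with IL-4+IL-6 and 9.73, 9.78 and 9.76 with IL-4+IL-10. IL-6 and IL-10 arrays overlapped the unstimulated ones, the lowest IL-4 array (9.33) lay just under the highest unstimulated one (9.34), and both pairs lay above all other arrays. Sel1l rose by 0.19 (SE 0.03, adjusted p = 2.17e-05) with IL-4, by 0.61 (SE 0.03, adjusted p = 1.68e-15) with IL-4+IL-6 and by 0.55 (SE 0.04, adjusted p = 1.43e-12) with IL-4+IL-10, and was not called with IL-6 (0.00, SE 0.03, adjusted p = 0.976) or IL-10 (0.03, SE 0.04, adjusted p = 0.542). The interactions were 0.42 (SE 0.05, adjusted p = 1.05e-07) with IL-6 and 0.33 (SE 0.06, adjusted p = 0.000127) with IL-10. Of 4 tested Sel1l probe sets, 3 rose with IL-4+IL-6 and the other read -0.10. With IL-10 alone 1 of the 4 was called lower (-0.19), and with IL-6 alone they read up to 0.08. Averaged over the probe sets, Sel1l rose by 0.11 with IL-4, 0.35 with IL-4+IL-6 and 0.27 with IL-4+IL-10, all called.

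Syvn1, which encodes the HRD1 ligase itself, rose in every group. For Syvn1 the lowest, median and highest unstimulated signals were 8.57, 8.60 and 8.74 (log2). IL-4 arrays read 8.79, 8.82, 8.70, 8.70 and 8.72, IL-6 arrays 8.80, 8.88, 8.78, 8.89 and 8.86, and IL-10 arrays 8.87, 8.99 and 8.95. Under the pairs, Syvn1 read 9.31, 9.16, 9.18, 9.19 and 9.20 with IL-6 added to IL-4 and 9.11, 9.30 and 9.45 with IL-10 added. The pairs lay above all single-cytokine arrays, and the IL-4 arrays overlapped the highest unstimulated array (8.74). Syvn1 rose by 0.13 (SE 0.04, adjusted p = 0.0113) with IL-4, 0.22 (SE 0.04, adjusted p = 0.000135) with IL-6, 0.32 (SE 0.05, adjusted p = 1.2e-05) with IL-10, 0.59 (SE 0.04, adjusted p = 1.05e-12) with IL-4+IL-6 and 0.67 (SE 0.05, adjusted p = 4.94e-12) with IL-4+IL-10. Its interactions were 0.24 (SE 0.06, adjusted p = 0.00429) with IL-6 and 0.22 (SE 0.08, adjusted p = 0.0335) with IL-10, the second of which was lost without any 1 of 6 arrays and under the replicate block of all arrays. Herpud1, a membrane component of the HRD1 complex, rose by 0.25, 0.25 and 0.51 with IL-4, IL-6 and IL-10 and by 0.68 and 0.66 with the pairs, with no interaction called (0.18 ± 0.10 and -0.10 ± 0.12 SE).

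Among lectins and mannose-trimming factors of ERAD, Edem1 rose by 0.65 (SE 0.04, adjusted p = 6.78e-15) with IL-4+IL-6 and by 0.40 (SE 0.05, adjusted p = 9.39e-09) with IL-4+IL-10. A second Edem1 probe set read 0.00 with IL-4+IL-6 and fell with IL-4+IL-10 (-0.15), so these values describe the brighter probe set. The average of the probe sets rose by 0.33 and 0.13 with the pairs, and read -0.014 with IL-4, where the brighter one was called higher (0.15). Os9 was not called with IL-4 (-0.08 ± 0.05 SE) and rose by 0.16 with IL-6, 0.26 with IL-10, 0.16 with IL-4+IL-6 and 0.23 with IL-4+IL-10. Against unstimulated replicates 6 to 8 alone, Os9 read 0.19 with IL-10 and 0.16 with IL-4+IL-10, neither called. Selenos, which recruits the p97 ATPase (Vcp) to the ER membrane, rose by 0.62 (SE 0.03, adjusted p = 2.89e-17) and 0.56 (SE 0.03, adjusted p = 2.96e-14) with the pairs, after 0.17, 0.21 and 0.33 with IL-4, IL-6 and IL-10. Vcp rose by 0.25 with IL-4, 0.11 with IL-6, 0.44 with IL-4+IL-6 and 0.42 with IL-4+IL-10, and was not called with IL-10 (0.08 ± 0.04 SE). Averaged over its probe sets, Vcp rose by 0.22 and 0.15 with the pairs and was not called with IL-6.

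The derlins, membrane proteins of the retrotranslocation channel, did not move as a group. Log2 Derl1 ran from 11.35 through a median of 11.44 to 11.56 without cytokine. It was 11.19, 11.25, 11.15, 11.11 and 11.10 after IL-4, 11.56, 11.50, 11.61, 11.64 and 11.57 after IL-6, and 11.56, 11.61 and 11.64 after IL-10. After the combinations it was 11.29, 11.48, 11.42, 11.36 and 11.33 (IL-4+IL-6) and 11.22, 11.04 and 11.18 (IL-4+IL-10). IL-4 and IL-4+IL-10 arrays lay below every unstimulated array, and IL-4+IL-6 arrays overlapped the unstimulated range. Derl1 fell, with differences of -0.28 (SE 0.04, adjusted p = 6.7e-07) with IL-4 and -0.30 (SE 0.05, adjusted p = 2.69e-06) with IL-4+IL-10. It rose by 0.13 (SE 0.04, adjusted p = 0.00812) with IL-6 and 0.16 (SE 0.05, adjusted p = 0.00767) with IL-10, and was not called with IL-4+IL-6 (-0.07, SE 0.04, adjusted p = 0.12). Against unstimulated replicates 6 to 8 alone, the Derl1 rise with IL-10 was not called (0.14, adjusted p = 0.206). Other Derl1 probe sets read up to 0.49 with IL-4+IL-6, and the brightest fell where another rose (0.14) with IL-4+IL-10. The average of its probe sets read -0.14 with IL-4, called, and -0.02 with IL-4+IL-10, not called. Derl2 rose with the pairs, by 0.23 ± 0.03 (SE) and 0.24 ± 0.04, with interactions of 0.22 (SE 0.05, adjusted p = 0.00113) and 0.20 (SE 0.06, adjusted p = 0.0183); its second probe set fell with IL-4+IL-6 (-0.13), and the average of both (0.05) was not called there. Derl3 stayed below the filter, with means between 6.39 and 6.69.

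The ER membrane protein Serp1 moved in opposite directions under IL-4 and under IL-6 or IL-10. Unstimulated arrays held log2 Serp1 signals between 12.06 and 12.31, with a median of 12.22. With a single cytokine, the signals were 11.82, 11.80, 11.79, 11.91 and 11.77 in the IL-4 arrays, 12.82, 12.79, 12.75, 12.81 and 12.67 in the IL-6 arrays, and 12.74, 12.84 and 12.82 in the IL-10 arrays. The pairs gave 12.34, 12.38, 12.35, 12.35 and 12.34 with IL-4+IL-6 and 12.08, 12.06 and 12.06 with IL-4+IL-10. IL-6 and IL-10 arrays stood above, and IL-4 arrays below, every unstimulated array. Also called RAMP4, and associated with the translocon, Serp1 fell with IL-4, with a difference of -0.38 (SE 0.04, adjusted p = 1.61e-09), and rose by 0.56 (SE 0.04, adjusted p = 1.99e-12) with IL-6 and 0.60 (SE 0.05, adjusted p = 2.27e-11) with IL-10. The pairs gave 0.15 (SE 0.04, adjusted p = 0.000906) with IL-4+IL-6 and -0.13 (SE 0.05, adjusted p = 0.0109) with IL-4+IL-10, and only the IL-10 interaction was called (-0.35, SE 0.07, adjusted p = 0.0003, against -0.03 ± 0.06 SE for IL-6). The fall with IL-4+IL-10 was not called against replicates 6 to 8 alone (-0.12, adjusted p = 0.173) or over the average of its probe sets (-0.00069, adjusted p = 0.992), which rose by 0.32 with IL-4+IL-6.

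Wfs1, which encodes the ER protein wolframin, was higher wherever IL-4 was present. For Wfs1 the lowest, median and highest unstimulated signals were 7.00, 7.65 and 7.92 (log2). IL-4 arrays read 8.34, 8.42, 8.54, 8.55 and 8.44, IL-6 arrays 7.46, 7.57, 7.63, 7.71 and 7.69, and IL-10 arrays 7.27, 7.06 and 6.85. Under the pairs, Wfs1 read 8.85, 8.83, 8.84, 8.87 and 8.87 with IL-6 added to IL-4 and 8.76, 8.69 and 8.68 with IL-10 added. Every array with IL-4 lay above every array without it. Wfs1 rose by 0.91 (SE 0.11, adjusted p = 3.96e-08) or 1.87-fold with IL-4, 1.30 (SE 0.11, adjusted p = 1.44e-11) or 2.46-fold with IL-4+IL-6 and 1.16 (SE 0.13, adjusted p = 6.59e-09) with IL-4+IL-10, was not called with IL-6 (0.06, SE 0.11, adjusted p = 0.699) and fell with IL-10 (-0.49, SE 0.13, adjusted p = 0.00309). Unstimulated replicates 6 to 8 lay below 1 to 5, at -0.56 (SE 0.10, adjusted p = 0.00632), and the IL-10 difference was -0.14 and not called against replicates 6 to 8 alone. Against replicates 1 to 5 alone, IL-6 read -0.15. With the replicate number of arrays 1 to 5 as a block, that fall with IL-6 was called (adjusted p = 0.0147), as was the IL-4 by IL-6 interaction (0.54, adjusted p = 3.31e-06).

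Adding IL-6 to IL-4 raised most members further. IL-4+IL-6 exceeded IL-4 for 26 of 30 members and lay below it for 1, Atf6, with a median difference of 0.41 (all genes, 29.4% higher and 31.2% lower). It exceeded IL-6 for 22 and lay below it for 3, Atf6, Derl1 and Serp1, with a median of 0.33 (34% and 32.9%). The largest gain over IL-4 was that of Dnajc3 (0.78 ± 0.06 SE), and the largest over IL-6 that of Wfs1 (1.24 ± 0.12). With the replicate number of arrays 1 to 5 as a block, Canx over IL-4, Hsp90b1 and Fkbp2 over IL-6, and Xbp1 over both were called higher as well.

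Adding IL-10 to IL-4 also raised most members. IL-4+IL-10 exceeded IL-4 for 23 of 30 members and lay below it for 1, Canx, with a median of 0.31 (32.7% of all genes higher, 24.6% lower). Of 3 Canx probe sets 2 were lower in this comparison, the brightest among them, and 1 was higher (0.26). The comparison with IL-4 runs across the presumed sets of arrays. At an unadjusted p under 0.05 in limma, 23 members were higher and 1 lower. With a term for the sets, 24 were higher and 0 lower. IL-4+IL-10 exceeded IL-10 for 17 and lay below it for 3, Atf6, Derl1 and Serp1, with a median of 0.25 (31.8% and 28.1%). Creb3, Calr, Fkbp2 and Herpud1 were also called higher than with IL-10 when the replicate number was a block over all arrays. That block joins same-numbered arrays of different presumed sets, between which pairing was not checked.

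The interaction asks whether a pair departs from the product of the single folds. For IL-4 and IL-6 it was above 0 for 11 of 30 members and below 0 for 3, Atf6, Calr and Sdf2l1, with a median of 0.09 (all genes, 21.4% above and 18.6% below). By the brightest probe sets, it was above 0 for 5 of 9 ERAD genes, Sel1l, Syvn1, Edem1, Derl2 and Selenos, and below 0 for none of them in limma, also none at an unadjusted p under 0.05 (median 0.22). The second Derl2 probe set was called below 0 (-0.24), and the second Edem1 probe set read 0.08 and was not called. Of 15 chaperones, 5 were above (Dnajb9, Dnajc3, Dnajc10, Sil1 and Ppib) and 2 below (median 0.05); the difference between ERAD genes and chaperones was not tested. For IL-4 and IL-10 the interaction was above 0 for 6 members (Creb3, Sil1, Sel1l, Syvn1, Derl2 and Wfs1) and below 0 for 5 (Xbp1, Atf6, Hspa5, Calr and Serp1), with a median of 0.01 (15.5% and 10.1%). The largest called was Wfs1, at 0.74 (SE 0.19, adjusted p = 0.00447). With a term for the sets of arrays, 4 members were above and 5 below. The Creb3 call was lost without any 1 of 12 arrays (lowest, 0.14 without IL-10 replicate 3) and that of Syvn1 without any 1 of 6 (lowest, 0.14 without IL-4+IL-10 replicate 3). Hspa5 read -0.12 without IL-4+IL-10 replicate 2, and Derl2 0.17 without IL-4+IL-10 replicate 3. Calls for Hyou1, Herpud1, Vcp and Wfs1 were added in the IL-4 and IL-6 interaction when the replicate number of arrays 1 to 5 was a block.

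**Figure D5:**
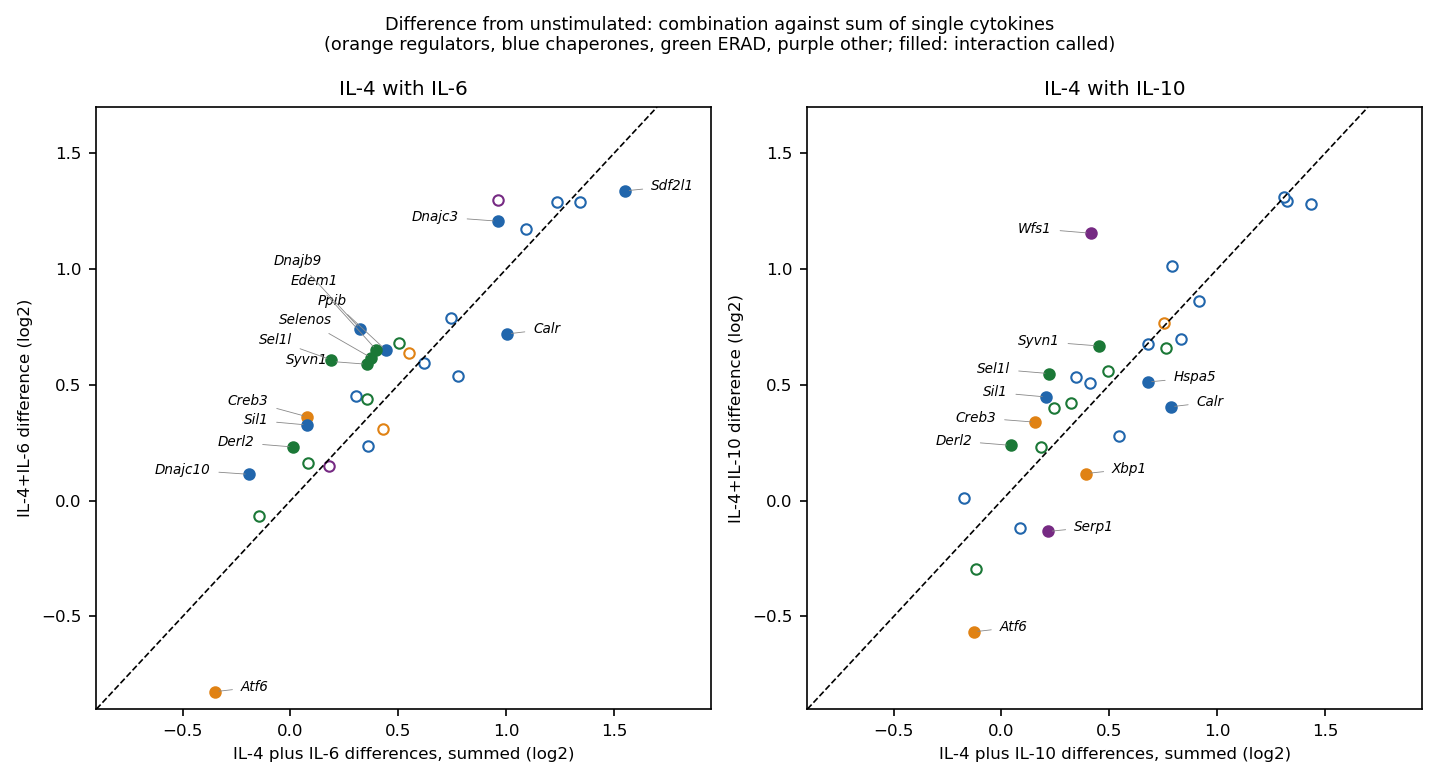
Observed log2 difference of each pair from unstimulated cells (y) against the sum of the 2 single-cytokine differences (x), for each tested member, with IL-6 in the left panel and IL-10 in the right; the line marks equal values. Sel1l and Dnajb9 lie above the line with IL-6, by 0.42 each, and Atf6 lies 0.47 below it.

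Direct contrasts of IL-6 with IL-10 run across the presumed sets of arrays. IL-10 exceeded IL-6 for 5 members (Atf6, Sil1, Fkbp2, Herpud1 and Selenos) and lay below it for 5 (Hyou1, Calr, Canx, Edem1 and Wfs1), with 6.26% and 5.62% of all genes called. With a term for the sets of arrays limma called 0 members (2 higher and 0 lower at an unadjusted p under 0.05), and without IL-10 replicate 2 it called 0. Between the pairs, IL-4+IL-10 exceeded IL-4+IL-6 for Atf6, Sil1 and Fkbp2 and lay below it for 12 members, among them Dnajc3 (-0.35 ± 0.07 SE), Hyou1 (-0.47 ± 0.06), Canx (-0.35 ± 0.06) and Calr (-0.31 ± 0.07), with 26.9% and 16% of all genes called. Another Canx probe set was higher between the pairs (0.12). With the term for sets, Hyou1, Dnajc3, Edem1, Derl1 and Serp1 kept their call, the others lost it, and Selenos (lower) and Wfs1 (higher) were added.

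Between unstimulated replicates 6 to 8 and 1 to 5, 4 members differed: Fkbp2 was higher, and Wfs1 (-0.56 ± 0.10 SE), Hsp90b1 (-0.27 ± 0.05) and Calr (-0.24 ± 0.05) were lower, with 8.96% of all genes higher and 5.48% lower. Against replicates 6 to 8 alone, IL-10 raised 18 members and lowered none, in place of 23 calls: Creb3, Sil1, Ppib, Derl1, Os9 and Wfs1 lost their call and Hsp90b1 gained one (0.30). With IL-4+IL-10, Os9 and Serp1 lost theirs. The log2 of the summed signal of B-lineage and plasma cell markers, cells with a large secretory ER, was 12.98 ± 0.29 (SD, n = 5) in unstimulated replicates 1 to 5, 12.09 ± 0.04 (n = 3) in replicates 6 to 8, 12.42 with IL-4, 13.03 with IL-6, 11.81 with IL-10, 12.50 with IL-4+IL-6 and 11.14 with IL-4+IL-10. Of these markers 6 of 8 measured passed the filter, Ighm among them, while Cd79a and Pou2af1 did not. Ighm had the highest mean log2 signal of them in every group, and the markers did not all move together. With IL-6, Jchain was 8.26 against 7.96 in unstimulated replicates 1 to 5, while Sdc1 was 10.10 against 10.88. With IL-10, Jchain was 5.76 against 5.81 in unstimulated replicates 6 to 8, while Prdm1 was 9.01 against 8.497. Over the 8 controls Jchain was 7.15, a mean raised by replicates 1 to 5. The sum therefore does not stand for each marker, and its link to plasma cells was not tested.

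Macrophage markers were all well expressed (8 of 8 above the filter, Lyz2 and Csf1r among them), and none of 6 T and NK cell, 5 mast cell or 5 fibroblast markers passed it. Neutrophil markers did for 6 of 8 measured, S100a8 among them, with a summed log2 signal of 13.03 ± 0.21 (SD, n = 8) in unstimulated arrays and 12.29 ± 0.18 (n = 5) with IL-4+IL-6. The 3' over 5' signal of Actb, a sign of RNA length, was 0.32 ± 0.01 (log2, SD, n = 5) in unstimulated replicates 1 to 5, 0.44 ± 0.07 (n = 3) in 6 to 8 and between 0.25 and 0.42 in the means of the cytokine groups. Their part in the results was not tested.

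Other genes of ER proteostasis were read from lists of related factors. Of all genes tested, 27.6% were called higher and 31.9% lower with IL-4, 16.1% and 23.1% with IL-6, and 18.3% and 19.5% with IL-10. The shares were 35% and 38.8% with IL-4+IL-6 and 38.1% and 34% with IL-4+IL-10. Disulfide isomerases and ER oxidases, which form disulfide bonds, also rose for the most part: 10 of 13 rose with IL-4 (median 0.29), 10 with IL-6 (0.26), 8 with IL-10 (0.21), 10 with IL-4+IL-6 (0.71) and 11 with IL-4+IL-10 (0.63), while 1 fell in each group but IL-4, where the lowest value was -0.03. Pdia4 rose by 1.07 with IL-4, 0.80 with IL-6 and 0.50 with IL-10, by 3.11 (8.63-fold) with IL-4+IL-6 and by 2.32 with IL-4+IL-10, with limma interactions between IL-4 and IL-6 or IL-10 of 1.24 (adjusted p = 2.46e-11) and 0.75 (adjusted p = 1.03e-05). Pdia5 rose by 1.68 and 1.29 with the pairs. Genes of the PERK-ATF4 branch, another arm of the ER stress response, rose for 11 of 16 with IL-4 and fell for 2 (median 0.36). With IL-6, 4 rose and 3 fell (0.08), and with IL-10, 6 rose and 2 fell (0.13). The largest changes there were falls, of Atf3 (-0.56 with IL-6, -0.81 with IL-10) and Psat1 (-0.53 and -0.66). With IL-4+IL-6, 14 rose (0.54) and with IL-4+IL-10, 15 rose (0.59), with lowest values in the list of 0.0089 and 0.08, led by Chac1 (1.78) with IL-4+IL-6 and Asns (1.64) with IL-4+IL-10.

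Further factors of the same pathways are set beside the shares of all genes tested, 35% higher and 38.8% lower with IL-4+IL-6. Of 12 other ER chaperones tested, 4 rose and 2 fell with IL-4+IL-6 (median 0.01), among them the glucosidase II subunits Ganab (0.38) and Prkcsh (0.37). Of 18 other ERAD factors 8 rose and 5 fell (0.07), with Rnf185 at 0.42 and Ngly1 at -0.34, and of 13 other sensors and regulators 4 rose and 4 fell (-0.07), with Nfya, a subunit of NF-Y, at -0.37. With IL-4 alone, 7 of the 18 other ERAD factors fell and 2 rose (-0.09), where 31.9% of all genes tested were called lower and 27.6% higher.

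The promoter matches were set beside the differences as a description. Of the 25 tested members with a window, the 9 with an ERSE or ERSE-II had a median log2 difference of 0.36 with IL-4, 0.37 with IL-6, 0.32 with IL-10 and 0.68 with IL-4+IL-6, and the 16 without had 0.16, 0.21, 0.23 and 0.53. For the IL-4 and IL-6 interaction the medians were -0.02 with a match and 0.21 without. Apart from Syvn1 and Herpud1, the tested members with a match were chaperones. The medians of all tested chaperones were 0.36 with IL-4, 0.37 with IL-6, 0.30 with IL-10 and 0.72 with IL-4+IL-6. Match and role therefore cannot be told apart here. Syvn1, with an ERSE just before its start, and Sel1l, whose window printed above holds none, had interactions of 0.24 ± 0.06 and 0.42 ± 0.05 (SE).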

How the data were processed

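Gene expression was measured on 29 single-colour Affymetrix 3' arrays in 6 stimulation groups. The deposited values are log2 signals per probe set; the submitters' processing notes name GCOS 1.4 and RMA, an array summary and normalisation method, without role or settings. The log2 base was inferred from the deposited values, whose highest (15.13) exceeds 11.09, the natural log of the largest 16-bit intensity; whether all arrays were normalised together is not given in the sources used here.

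Of 22690 probe sets, 20393 were annotated to 1 gene, 691 to several and 1606 to none; only the first were used, with symbols looked up by gene ID (GRCm38.p6). The probe set with the highest mean stood for its gene. Genes above log2 6.99, the median of all values, on at least 3 arrays were tested: 7154 of 12394. Array medians lay between 6.95 and 7.04, and no arrays were identical.

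Differences and interactions were estimated with limma 3.58.1 in R 4.3.3 in 1 fit over the 29 arrays (lmFit, eBayes), with Benjamini-Hochberg adjustment over the 7154 genes and a threshold of 0.05, and the code was tested on simulated data. All 33 members are named in the text, and from each related list the 2 called genes, at most, that changed most in a comparison. Members and lists were chosen with earlier results of these data known.

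Same-numbered arrays of the unstimulated, IL-4, IL-6 and IL-4+IL-6 groups deviated together (30 of 30 pairs, correlations 0.46 to 0.70), as did those of the IL-10 and IL-4+IL-10 groups (3 of 3, 0.60 to 0.78), so the numbers were taken to pair arrays within these sets. The main fit held group terms only and took no account of this pairing. The alternatives were a replicate block, an added set term, controls of the same set, each array left out, other filters, probe-set rules, scalings and thresholds, a moderated fit with trend, and fits on the compared groups alone. Promoter windows are RefSeq sequences. Proteins were not analysed here.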

Additional observations from a re-analysis of the deposited data

Results flagged for a closer look

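Among 132 gene and group combinations looked at, 13 held an array that stood apart from the rest of its group, where chance gives about 5%. Xbp1 was low in IL-4+IL-6 replicate 1 (12.51, next 12.69), and without this array IL-4+IL-6 exceeded both single cytokines by 0.14. The same array was the highest of its group for Ppib (12.95) and Syvn1 (9.31). IL-6 replicate 5 was highest for Hspa5 (13.69), Dnajb11 (11.21) and Manf (11.81), and IL-6 replicate 3 for Sil1 (9.11) and Fkbp2 (10.83). Fkbp2 was also highest in IL-4+IL-6 replicate 3 (11.05). Lowest values stood apart for Ern1 in IL-4 replicate 3 (6.15), Dnajc10 in unstimulated replicate 5 (10.00) and Sdf2l1 in unstimulated replicate 6 (10.53), and Syvn1 was highest in unstimulated replicate 7 (8.74).

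The effect of IL-6 differed with and without IL-4, by the interaction in limma, for 14 members. On the log2 scale it was -0.47 for Atf6, -0.28 for Calr and -0.21 for Sdf2l1. It was 0.42 for Dnajb9, 0.42 for Sel1l, 0.30 for Dnajc10, 0.28 for Creb3, 0.25 for Dnajc3, 0.25 for Sil1, 0.25 for Edem1, 0.24 for Selenos, 0.24 for Syvn1, 0.22 for Derl2 and 0.21 for Ppib. Averaging each gene's probe sets ended the calls of Dnajc3, Ppib and Derl2.

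The effect of IL-10 differed with and without IL-4 for 11 members. The interaction was 0.74 for Wfs1, 0.33 for Sel1l, 0.24 for Sil1, 0.22 for Syvn1, 0.20 for Derl2 and 0.18 for Creb3. It was -0.44 for Atf6, -0.38 for Calr, -0.35 for Serp1, -0.28 for Xbp1 and -0.17 for Hspa5.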

How the results depend on the processing

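Against unstimulated cells 24 members were called with IL-4, 24 with IL-6, 23 with IL-10, and 29 and 28 with IL-6 or IL-10 added to IL-4; requiring at least 1.5-fold left 4, 2, 4, 18 and 11. The same requirement left 4 and 8 for IL-4+IL-6 against IL-4 and IL-6, 2 and 5 for IL-4+IL-10 against IL-4 and IL-10, 0 for IL-10 against IL-6, 0 between the pairs, 0 and 1 for the interactions (IL-6, then IL-10), and 1 between the unstimulated sets. An adjusted p under 0.01 left 2 for IL-10 against IL-6, 7 for the IL-4 and IL-10 interaction and 2 between the unstimulated sets. For IL-10 against IL-6, testing all genes without a filter called 5 members and a term for the sets of arrays 0; between the pairs that term left 7. Leaving out each array in turn gave 24 to 25 calls with IL-4, 24 to 25 with IL-6, 22 to 24 with IL-10, 28 to 30 with IL-4+IL-6 and 27 to 28 with IL-4+IL-10. The ranges were 27 to 28 and 25 to 27 for IL-4+IL-6 against IL-4 and IL-6, 22 to 24 and 19 to 21 for IL-4+IL-10 against IL-4 and IL-10, 0 to 8 for IL-10 against IL-6, 12 to 14 between the pairs, 14 to 15 and 8 to 13 for the interactions with IL-6 and IL-10, and 4 to 5 between the unstimulated sets. No difference that was called, with all arrays or with 1 left out, changed sign when an array was left out; differences near 0 that were called in neither fit could.

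With the replicate block over all arrays, in which unstimulated replicates 6 to 8 carry no weight, 25, 25, 25, 29 and 28 members were called against unstimulated cells, 28 and 28 for IL-4+IL-6 against IL-4 and IL-6, 25 and 24 for IL-4+IL-10 against IL-4 and IL-10, 10 for IL-10 against IL-6, 16 between the pairs, and 15 and 14 for the interactions. This block ended the call of Xbp1 with IL-4+IL-10 (0.08, adjusted p = 0.12 in limma). It joins IL-10 and IL-4+IL-10 arrays with same-numbered arrays of the other groups, although pairing was checked only within the presumed sets. With the replicate block over arrays 1 to 5 of 4 groups the counts were 25 with IL-4, 26 with IL-6, 29 with IL-4+IL-6, and 18 for the interaction.

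Counting only differences called under at least 1 of the settings compared, the direction turned in 14 cases, and beyond the settings' own construction the cause was not tested. Averaging each gene's probe sets gave -0.014 for Edem1 with IL-4, 0.22 for Derl1 with IL-4+IL-6, 0.031 for Derl1 in IL-4+IL-6 against IL-6, 0.12 for Derl1 and -0.028 for Vcp in IL-4+IL-10 against IL-4, and -0.0091 for Derl2 in the interaction of IL-4 and IL-6. Wfs1 with IL-6 read -0.15 both with controls of the same set and with the replicate block of arrays 1 to 5. The term for the sets gave 0.019 for Calr, -0.11 for Fkbp2 and 0.0088 for Wfs1 in IL-10 against IL-6, and 0.011 for Hsp90b1, -0.034 for Fkbp2 and 0.42 for Wfs1 between the pairs. Controls of the same set alone cannot give the interaction of IL-4 and IL-10. Other scalings moved the median of all genes by at most 0.039.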

Other observations

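Probe sets of 1 gene did not always move together. Of 260 pairs of gene and comparison with at least 2 tested probe sets (20 members), 15 had probe sets called in opposite directions, among them Edem1 with IL-4 (0.15 and -0.17), Derl1 with IL-4+IL-10 (-0.30 and 0.14), Derl2 with IL-4+IL-6 (0.23 and -0.13) and Sel1l in IL-4+IL-6 against IL-6 (0.61 and -0.14). The probe sets of Hspa5, Calr, Hsp90b1, Hyou1, Herpud1 and Xbp1 with IL-4+IL-6 were all called higher, from 0.31 for the brightest Xbp1 set to 1.17 for Hyou1.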
